A study of Homo sapiens with 12 samples.

Results

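A set of 8 genes of cholesterol synthesis and its feedback control were followed on every array of this series: HMGCS1, MVD, IDI1, FDFT1, SQLE, LSS, DHCR7 and INSIG1. They were chosen by symbol, with earlier results of these data known but with no threshold on their values. All probes that carry these symbols in the annotation of the array were read. Of the 8 genes, 7 had a probe (12 probes of 47313 on the array), and 10 of these probes, with at least 1 for each of the 7 genes, were among the 22186 probes that were tested. FDFT1 was not analysed here. The cells were U2OS, a human osteosarcoma line. RNA of 12 samples was hybridized to 12 Illumina HumanHT-12 bead arrays, 2 arrays for each of 6 groups: ST362 at 5 ppm for 6 h, MEB55 at 5 ppm for 6 h, vehicle (Control) for 6 h, and the same agents for 24 h. ST362 and MEB55 are synthetic analogues of strigolactones (SLs), plant hormones that control branching. Both were dissolved in acetone, and the Control cells received acetone alone. The 2 analogues were matched by mass, not by molarity, and a single cell line was used.

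Cells make cholesterol from acetyl-CoA through mevalonate and a series of isoprenoid units that are joined to squalene, closed into lanosterol and then trimmed to cholesterol. Most genes of this pathway are switched on by the sterol regulatory element-binding proteins (SREBPs), membrane-bound transcription factors that are kept in the endoplasmic reticulum while sterol is plentiful. The escort protein SCAP carries the SREBPs to the Golgi, where proteases release the active part, and INSIG proteins hold SCAP back. INSIG1 is itself a target of the SREBPs, so its mRNA usually moves with those of the enzymes. SREBPs often act together with the factor NF-Y, which binds CCAAT boxes.

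The bases upstream of the genes are shown because SREBP targets share promoter elements. RefSeq windows of the 250 bases before a transcription start (GRCh38.p14) were searched on both strands for the sterol regulatory element TCACNCCAC, the E-box CACGTG (which SREBPs also bind), the CCAAT box (CCAAT) and the GC box (GGGCGG). For 6 members (SQLE was not searched) there were 10 such windows, some of which overlap. A CCAAT box lay in 7 of these 10 windows, against 32% of 34788 windows of the same length. It lay in at least 1 window of 6 of 6 genes, for which no share over all genes was computed. A GC box lay in 9 of 10 windows (42.6% of all windows), the E-box in 1 of 10 (6.31%) and the sterol element in 0 of 10 (0.882%). A match describes letters, and no match says only that these letters were not in the window. The windows of 4 genes are printed 5′ to 3′ on the strand of the gene, with CCAAT boxes (read as ATTGG on the other strand) and the E-box in capitals. The upstream one of 2 HMGCS1 windows (chr5:43313413-43313662, minus strand) held 2 CCAAT boxes and the other, not printed, held 0, the MVD window (chr16:88663092-88663341, minus strand) held 3, the LSS window (chr21:46228775-46229024, minus strand) held 1, and the INSIG1 window (chr7:155297628-155297877, plus strand) held 1 CCAAT box and the E-box.
HMGCS1: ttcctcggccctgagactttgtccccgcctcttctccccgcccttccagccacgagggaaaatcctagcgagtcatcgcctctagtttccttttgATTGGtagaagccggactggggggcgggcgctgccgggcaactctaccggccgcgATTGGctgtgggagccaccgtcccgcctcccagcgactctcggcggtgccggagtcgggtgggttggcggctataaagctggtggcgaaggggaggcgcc
MVD: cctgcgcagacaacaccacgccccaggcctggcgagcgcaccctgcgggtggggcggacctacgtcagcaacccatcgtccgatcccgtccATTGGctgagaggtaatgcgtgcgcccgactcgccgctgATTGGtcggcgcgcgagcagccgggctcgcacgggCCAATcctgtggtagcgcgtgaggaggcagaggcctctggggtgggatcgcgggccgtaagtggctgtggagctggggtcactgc
LSS: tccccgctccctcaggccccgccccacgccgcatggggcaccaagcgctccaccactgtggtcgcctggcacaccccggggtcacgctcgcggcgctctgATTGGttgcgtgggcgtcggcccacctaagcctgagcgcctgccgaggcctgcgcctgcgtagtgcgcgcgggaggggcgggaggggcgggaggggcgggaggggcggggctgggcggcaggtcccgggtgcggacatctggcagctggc
INSIG1: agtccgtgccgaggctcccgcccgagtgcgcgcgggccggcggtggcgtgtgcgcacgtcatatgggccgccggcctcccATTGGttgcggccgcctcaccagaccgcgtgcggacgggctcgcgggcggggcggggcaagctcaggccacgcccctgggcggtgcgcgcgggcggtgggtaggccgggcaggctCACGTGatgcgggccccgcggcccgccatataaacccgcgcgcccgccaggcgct

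Some of the arrays stood apart before any member was considered. HSPA6, a heat-shock-inducible chaperone of the HSP70 family, had log2 levels of 10.50 and 4.99 on the 2 ST362 6 h arrays, 11.01 and 5.61 on the MEB55 6 h arrays, 4.75 and 11.06 on the ST362 24 h arrays and 4.80 and 12.54 on the MEB55 24 h arrays (replicate 1, then replicate 2), and 4.41 to 4.73 on the 4 Control arrays. Each analogue group therefore held 1 array with high and 1 with low HSPA6, replicate 1 being high at 6 h and replicate 2 at 24 h. DDIT3, a transcription factor of the integrated stress response, split the same pairs. The summed linear level of 12 heat shock genes was 42558 to 62116 on the 4 analogue arrays with high HSPA6 and 14353 to 21059 on the other 4 analogue arrays, and it was 16255 to 19855 on the Control arrays. Over all tested probes, each of the 8 analogue arrays correlated better with an array of the same analogue at the other time (r = 0.986 to 0.989) than with its own replicate (0.971 to 0.977). The Control 6 h arrays did so by less. They correlated at 0.989 (replicate 1) and 0.988 (replicate 2) with the same-numbered Control 24 h array, and at 0.986 with each other. The Control 24 h arrays were closest to each other (0.991). The paper lists HSPA6 with the largest fold changes among its representative 6 h genes, for both analogues. Here 1 of the 2 arrays labelled 6 h was high with each analogue. The labelled times of the analogue arrays are used as given, and whether they are right was not tested. Analogue groups by time therefore mix high and low arrays, and their spread and every test by time include this split. Each comparison is also given over both times, where the mixture remains. Of 8 marker genes of mesenchymal and bone-forming cells, 5 (VIM, SPARC, COL1A1, CDH2 and ALPL) were detected on 12 of 12 arrays, RUNX2 on 7, BGLAP on 6 and COL1A2 on 1, whereas the leukocyte genes PTPRC and CD3E and the epithelial gene KRT5 were detected on 0 of 12. EPCAM (epithelial) and ALB (hepatocyte) were detected on 12 of 12, the epithelial CDH1 on 3, and the endothelial PECAM1 and CDH5 and the hepatocyte APOA1 on 1 each.

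The 4 Control arrays differed among themselves in the members, which sets the scale for every comparison with them. In RNA of whole cultures, fewer cells with a transcript and less of it per cell cannot be told apart. Replicate 2 lay above replicate 1 at 6 h and again at 24 h for 7 of 7 members, while 33.9% of the 12290 genes tested did so. The differences at 6 h and 24 h were 0.79 and 0.56 on the log2 scale for HMGCS1, 0.82 and 0.96 for MVD, 0.54 and 0.59 for IDI1, 0.29 and 0.40 for SQLE, 0.78 and 0.62 for LSS, 0.97 and 0.74 for DHCR7 and 1.05 and 0.94 for INSIG1. SQLE had the smallest difference at both times, and the other 6 members differed by at least 0.5 at both times, as did 1.7% of all genes. With no background correction, with a larger offset or with the series values of the authors, the count at 0.5 was 3 of 7. The direction stayed the same for 7 of 7 under each of 5 other scalings, all of which bring the arrays to a common level. In the deposited signals before scaling, SQLE (997.3 on Control 6 h replicate 1, 774.4 on replicate 2) and IDI1 (226.6 and 206.4) had the reverse order at 6 h. HMGCS1, MVD, LSS, DHCR7 and INSIG1 were higher on replicate 2 there, as was every member at 24 h. Control 6 h replicate 1 was also the brightest array (75th percentile of the signal 149.3, against 115.1 to 125.4 on the others), and its part in the 6 h differences was not tested. The 24 h Control arrays had close 75th percentiles of 122.6 (replicate 1) and 120.2 (replicate 2) and showed the same order of the members.

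**Figure D1:**
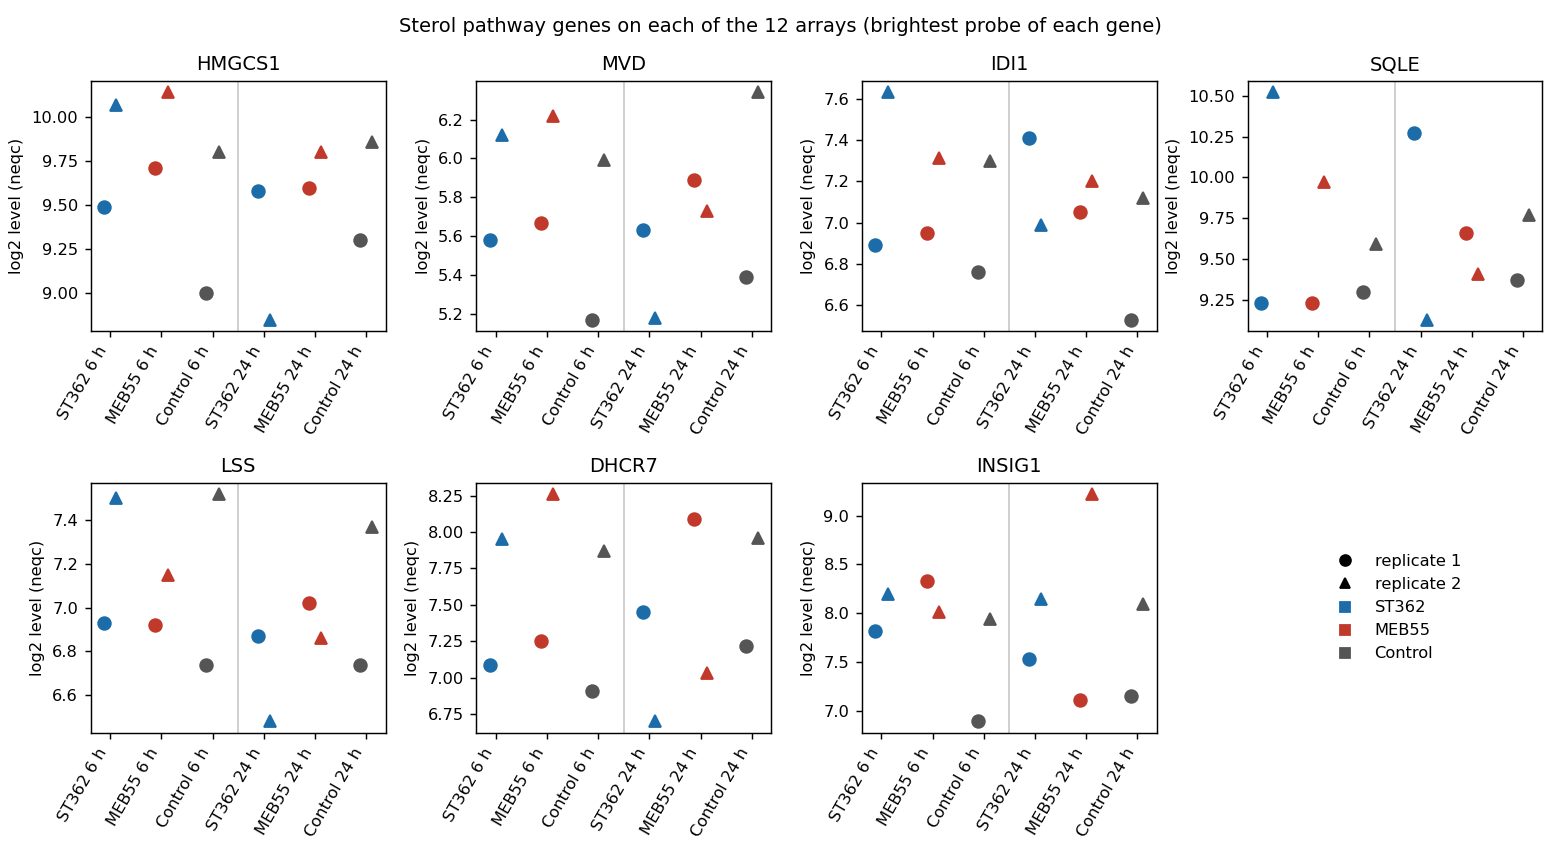
Log2 level (y axis, background-corrected and quantile-normalized signal) of the brightest probe of 7 sterol pathway genes on each of the 12 arrays, with ST362, MEB55 and Control at 6 h left of the line and at 24 h right of it. Circles are replicate 1 and triangles replicate 2. The Control triangle sits above the Control circle in each panel at both times, and the groups overlap for every gene over the 2 times.

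The early steps of the pathway were represented by HMGCS1, MVD and IDI1. HMGCS1 (chromosome 5, 43287470 to 43313412) encodes the cytosolic synthase that makes HMG-CoA. Its log2 level was 9.49 and 10.07 on the ST362 6 h arrays, 9.71 and 10.14 on the MEB55 6 h arrays and 9.00 and 9.80 on the Control 6 h arrays. At 24 h it was 9.58 and 8.85 with ST362, 9.60 and 9.80 with MEB55 and 9.30 and 9.86 in Control. At 6 h the analogue arrays were shifted upward but overlapped the Control arrays, and ST362 24 h replicate 2 was the lowest of the 12. The 6 h difference from Control was 0.38 ± 0.34 (SE) for ST362 and 0.52 ± 0.34 for MEB55, and at 24 h it was -0.36 ± 0.34 and 0.12 ± 0.34 in the same order of analogues.

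MVD (chromosome 16, 88651940 to 88663091) encodes mevalonate diphosphate decarboxylase, which forms isopentenyl diphosphate. The arrays gave it log2 levels of 5.58 and 6.12 on the ST362 6 h arrays, 5.67 and 6.22 on the MEB55 6 h arrays and 5.17 and 5.99 on the Control 6 h arrays. The 24 h arrays gave 5.63 and 5.18 with ST362, 5.89 and 5.73 with MEB55 and 5.39 and 6.34 in Control. The Control arrays at 24 h enclosed both MEB55 arrays, and ST362 replicate 2 fell below them. MVD was dim but detected on 12 of 12 arrays. Its deposited signals were 96.8 to 142.9, where the median signals of the arrays were 80.7 to 90.4, so its log2 differences rest on small differences in signal. IDI1 (chromosome 10, 1039152 to 1056704) encodes the isomerase that turns isopentenyl diphosphate into its reactive isomer. On the log2 scale it had 6.89 and 7.63 on the ST362 6 h arrays, 6.95 and 7.31 on the MEB55 6 h arrays and 6.76 and 7.30 on the Control 6 h arrays. The 24 h values were 7.41 and 6.99 with ST362, 7.05 and 7.20 with MEB55 and 6.53 and 7.12 in Control. IDI1 was above Control in the mean of all 4 analogue groups, by 0.23 (ST362) and 0.10 (MEB55) at 6 h and by 0.38 (ST362) and 0.31 (MEB55) at 24 h with an SE of 0.31, and the arrays overlapped in each.

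The squalene and sterol steps were represented by SQLE, LSS and DHCR7. SQLE, on chromosome 8, encodes squalene epoxidase, which adds oxygen to squalene and is a rate-limiting step of the pathway. Its log2 level was 9.23 and 10.52 on the ST362 6 h arrays, 9.23 and 9.97 on the MEB55 6 h arrays and 9.30 and 9.59 on the Control 6 h arrays. At 24 h it was 10.27 and 9.13 with ST362, 9.66 and 9.41 with MEB55 and 9.37 and 9.77 in Control. The Control arrays were close together for SQLE (SD 0.21, n = 4), and the ST362 arrays lay above and below them at both times. LSS (chromosome 21, 46188446 to 46228774) encodes lanosterol synthase, which closes the sterol rings. Measured log2 levels of LSS were 6.93 and 7.50 on the ST362 6 h arrays, 6.92 and 7.15 on the MEB55 6 h arrays and 6.74 and 7.52 on the Control 6 h arrays. For 24 h the levels were 6.87 and 6.48 with ST362, 7.02 and 6.86 with MEB55 and 6.74 and 7.37 in Control. At 6 h the Control arrays enclosed all 4 analogue arrays, and at 24 h they enclosed both MEB55 arrays.

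DHCR7 (chromosome 11, 71427287 to 71449043) encodes 7-dehydrocholesterol reductase, the last step of a main route to cholesterol. The log2 level of DHCR7 was 7.09 and 7.95 on the ST362 6 h arrays, 7.25 and 8.26 on the MEB55 6 h arrays and 6.91 and 7.87 on the Control 6 h arrays. In the 24 h groups it was 7.45 and 6.70 with ST362, 8.09 and 7.03 with MEB55 and 7.22 and 7.96 in Control. The 2 arrays of each group differed by 0.74 to 1.06 in size, which was larger than any difference from the Control mean (-0.51 to 0.37 against Control, SE 0.51).

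INSIG1 (chromosome 7, 155297878 to 155310235) encodes the protein that holds SCAP in the endoplasmic reticulum. INSIG1 had log2 levels of 7.82 and 8.20 on the ST362 6 h arrays, 8.33 and 8.01 on the MEB55 6 h arrays and 6.89 and 7.94 on the Control 6 h arrays. After 24 h it had 7.53 and 8.14 with ST362, 7.11 and 9.22 with MEB55 and 7.15 and 8.09 in Control. MEB55 24 h replicate 2 held the highest INSIG1 level of the 12 arrays, and Control 6 h replicate 1 the lowest. Against Control, INSIG1 differed by 0.59 (ST362) and 0.75 (MEB55) at 6 h and by 0.22 (ST362) and 0.55 (MEB55) at 24 h, with an SE of 0.60. None of these 4 differences passed the test with 2 arrays a group. Leaving out 1 array moved the MEB55 24 h difference to between -0.51 and 1.6, the ST362 24 h difference to between -0.25 and 0.68 and the ST362 6 h difference to between 0.07 and 1.12, so the direction at 24 h rested on single arrays.

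None of the 7 members passed the test against Control at either time. With limma and Benjamini-Hochberg adjustment over all tested probes, 0 of 7 were called for ST362 at 6 h, MEB55 at 6 h, ST362 at 24 h and MEB55 at 24 h, and 0% of the 22186 probes were called in each of the 4 comparisons. At an unadjusted p under 0.05, 0 of 7 members passed in each, where 5.81%, 4.63%, 7.59% and 5.31% of all probes did so in that order. The members' differences ran from 0.08 to 0.59 for ST362 at 6 h (median 0.27, against 0.01 over all genes), from -0.10 to 0.75 for MEB55 at 6 h (median 0.36, all genes 0.00), from -0.51 to 0.38 for ST362 at 24 h (median -0.36, all genes -0.03) and from -0.11 to 0.55 for MEB55 at 24 h (median -0.02, all genes -0.01). The adjusted p of the members was 0.815 or higher in these 4 limma comparisons. The intervals were wide: for DHCR7 with ST362 at 24 h the 95% interval of the log2 fold change was -1.63 to 0.62, and for INSIG1 with MEB55 at 6 h it was -0.57 to 2.08.

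**Figure D2:**
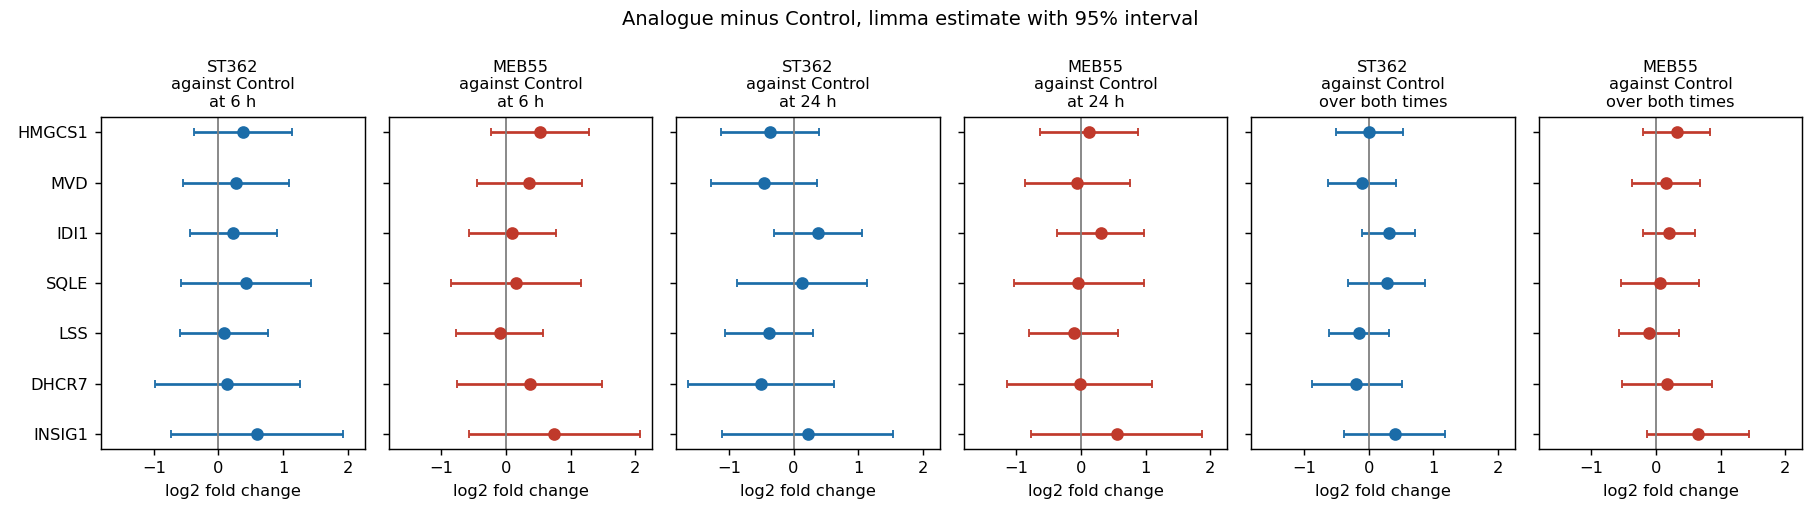
Log2 fold change of each analogue against Control (x axis) for 7 sterol pathway genes, as limma estimates with 95% intervals, at 6 h, at 24 h and over both times. Every interval includes 0, and the widest are those of INSIG1.

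Taking 4 arrays of each agent over both times narrowed the intervals, and the members still did not separate from Control. ST362 called 0 of 7 members (0.577% of all probes) and MEB55 called 0 of 7 (0.446% of all probes), with 0 of 7 at an unadjusted p under 0.05 in limma, against 13.2% and 10.5% of all probes. The largest difference was that of INSIG1 with MEB55, 0.65 ± 0.37 (SE, 95% interval -0.14 to 1.44, limma adjusted p = 0.58). With ST362, INSIG1 differed by 0.41 ± 0.37 and IDI1 by 0.31 ± 0.19 (95% interval -0.10 to 0.72). HMGCS1 stayed near 0 with ST362 (0.01 ± 0.24, 95% interval -0.51 to 0.53) and was 0.32 ± 0.24 with MEB55. The 4 analogue arrays overlapped the 4 Control arrays for 7 of 7 members with either analogue, whereas 9.81% (ST362) and 7.79% (MEB55) of all genes did not overlap.

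MEB55 and ST362 were also set against each other at the same mass dose. The test called 0 of 7 members at 6 h, at 24 h and over both times (0%, 0% and 0.018% of all probes), and 0 of 7 at an unadjusted p under 0.05 in limma (2.75%, 3.62% and 7.88%). Over both times HMGCS1 was 0.31 higher with MEB55 than with ST362 (95% interval -0.20 to 0.83), DHCR7 0.36 (-0.33 to 1.05), MVD 0.25 (-0.28 to 0.78) and INSIG1 0.24 (-0.54 to 1.03). SQLE differed by -0.22 (-0.81 to 0.38), IDI1 by -0.10 (-0.51 to 0.31) and LSS by 0.04 (-0.42 to 0.50). These intervals leave room for differences of either sign. The 4 MEB55 and 4 ST362 arrays overlapped for 7 of 7 members, while 3.92% of all genes did not overlap. Same-numbered ST362 and MEB55 arrays of a time deviated together, so a fit with these 4 pairs as a block was added after the data were seen. MEB55 was above ST362 in 4 of 4 pairs for HMGCS1, MVD and DHCR7 (10.4% of all genes were), and in 2 of 4 for the other 4 members. The paired limma fit called 0 of 7 members (0.275% of probes) and 1 of 7 at an unadjusted p under 0.05 (12.5% of probes), DHCR7 at 0.36 (95% interval 0.08 to 0.64, adjusted p = 0.289). HMGCS1 had a paired interval of -0.04 to 0.67 and MVD one of -0.03 to 0.53. The change of the ST362 effect with time and that of the MEB55 effect called 0 of 7 members each (0% of probes, and 2.47% and 1.41% at an unadjusted p, where 0 of 7 members passed in limma). Between Control 24 h and Control 6 h, 0 of 7 members were called as well (0% of probes, 2.86% at an unadjusted p with 0 of 7 members in limma), and their differences ran from -0.21 (IDI1) to 0.29 (MVD).

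The spread between arrays of 1 group was wide for these genes. The residual SD in the fit of 6 groups was 0.35 for IDI1, 0.36 for LSS, 0.41 for HMGCS1, 0.45 for MVD, 0.57 for SQLE, 0.64 for DHCR7 and 0.77 for INSIG1, against a median of 0.23 over all tested probes. Only 0.947% of tested probes had a larger residual SD than INSIG1 and 2.06% a larger one than DHCR7, whereas 18% exceeded IDI1. Among the 4 Control arrays alone the SD was 0.58 for INSIG1, 0.54 for MVD, 0.51 for DHCR7, 0.41 for HMGCS1, 0.41 for LSS, 0.35 for IDI1 and 0.21 for SQLE (median of all probes 0.19). SQLE was thus near the middle of all probes in Control (39.1% had a larger SD) and wide among the analogue arrays.

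The arrays of an analogue pair differed in a direction that went with the HSPA6 level. On the array with the higher HSPA6, 7 of 7 members were lower in the ST362 6 h pair, 6 of 7 in the MEB55 6 h pair, 6 of 7 in the ST362 24 h pair and 4 of 7 in the MEB55 24 h pair, while 49.7% to 51.2% of all genes were lower there. MVD, SQLE, LSS and DHCR7 were lower on that array in 4 of 4 pairs (14.5% of all genes were). HMGCS1 and IDI1 were lower in 3 of 4, the exception being MEB55 24 h, where the arrays differed by 0.19 and 0.15. For SQLE the replicates differed by 1.29 with ST362 at 6 h (replicate 2 above replicate 1) and by -1.14 with ST362 at 24 h, so the order of the replicate numbers turned with the time label just as that of HSPA6 did. DHCR7 turned likewise, from 0.86 and 1.01 at 6 h to -0.75 and -1.06 at 24 h with ST362 and MEB55. The Control pairs had flat HSPA6 and still differed, by 0.97 and 0.74 for DHCR7, and DHCR7 on the Control replicate 1 arrays (6.91 at 6 h and 7.22 at 24 h) was as low as on the 4 arrays with high HSPA6 (6.70 to 7.25). On the same Control arrays LSS was 6.74 at both times, against 6.48 to 6.93 on the arrays with high HSPA6. MVD was 5.17 and 5.39, against 5.18 to 5.73, and SQLE 9.30 and 9.37, against 9.13 to 9.41. The part of heat shock in these differences was not tested.

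INSIG1, read from its bright probe, departed from the enzymes in this respect. Its dim probe did not show this, but it was detected on only 6 of 12 arrays and is too near background to decide. On the bright probe, INSIG1 was lower on the array with high HSPA6 in only 1 of 4 pairs, ST362 at 6 h, where the difference was 0.38. In the other 3 pairs it was higher there, by 0.31 with MEB55 at 6 h, by 0.61 with ST362 at 24 h and by 2.11 with MEB55 at 24 h. DHCR7 on the same MEB55 24 h arrays went the other way by 1.06. In the Control pairs INSIG1 moved with the enzymes. Over the 12 arrays the 15 pairs among the 6 enzymes correlated at r = 0.55 to 0.91 (median 0.69), and INSIG1 correlated with the enzymes at r = -0.06 to 0.45 (median 0.26). These are descriptions across arrays that share groups and hybridizations.

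**Figure D3:**
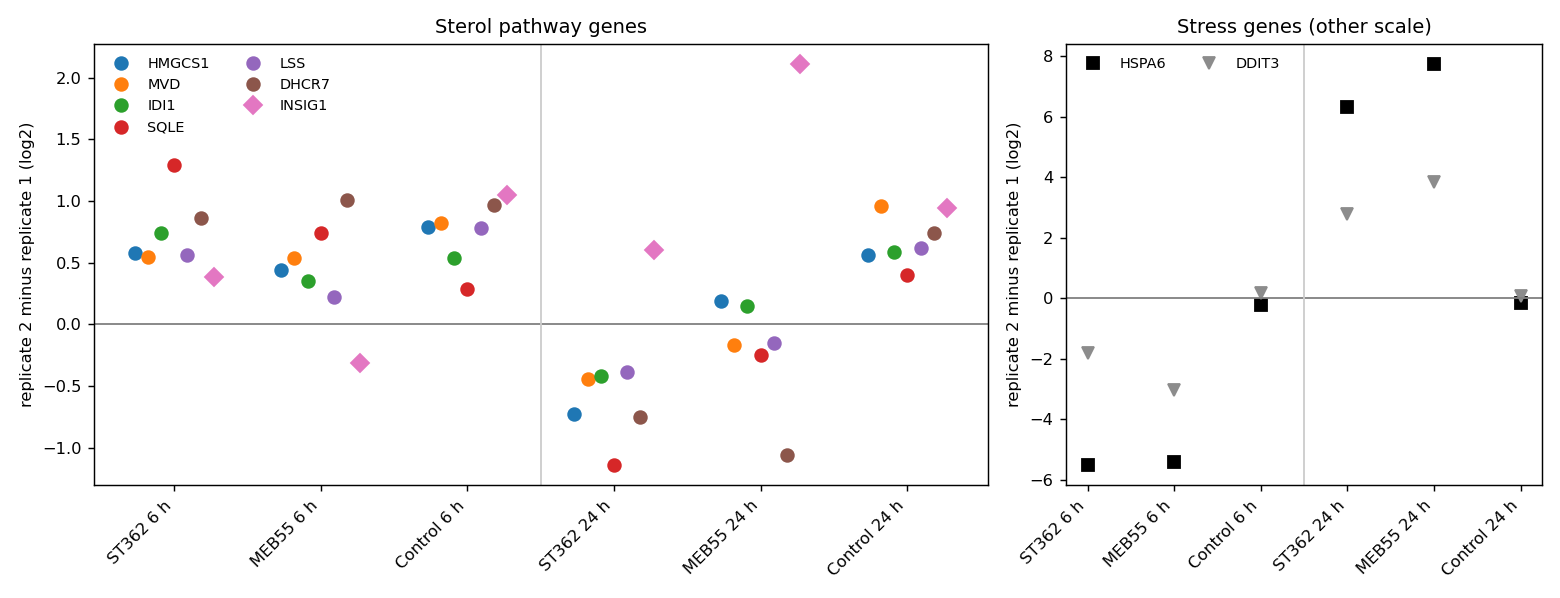
Replicate 2 minus replicate 1 on the log2 scale (y axis) for each of 6 groups, with 7 sterol pathway genes on the left and the stress genes HSPA6 and DDIT3 on the right, on a different scale. The 6 enzymes lie above 0 at 6 h and in Control and mostly below 0 in the analogue pairs at 24 h, while INSIG1 (diamonds) reaches 2.11 in the MEB55 24 h pair.

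**Figure D4:**
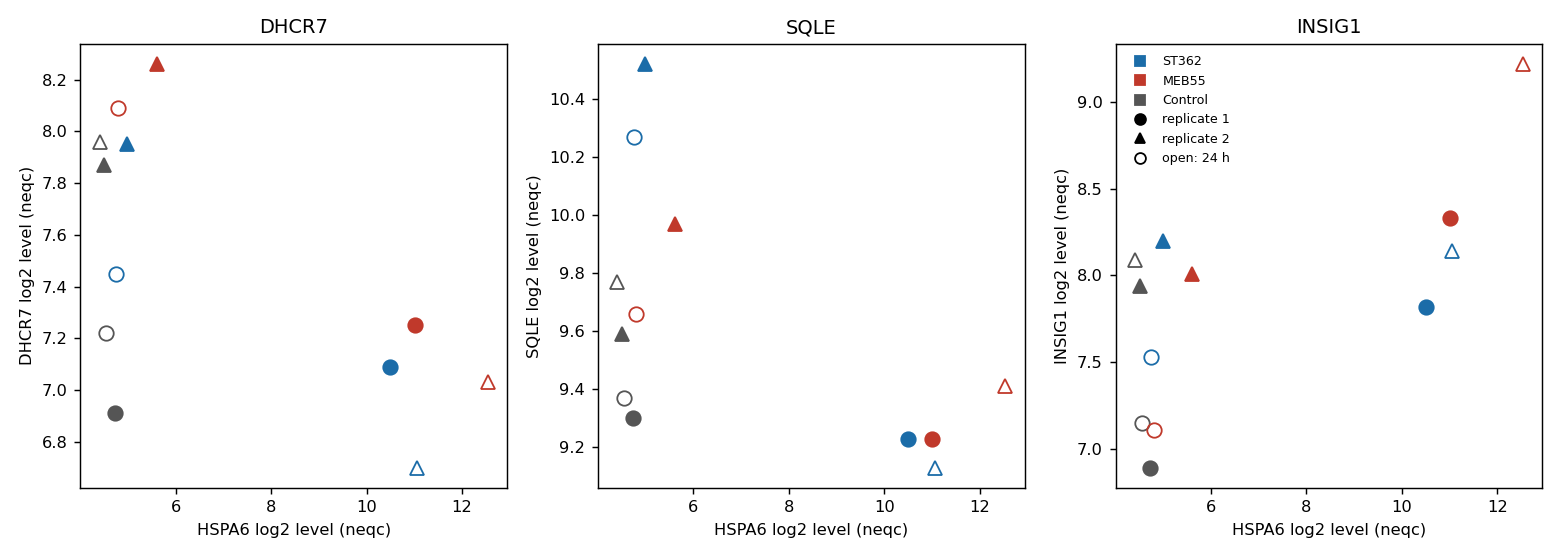
Log2 levels of DHCR7, SQLE and INSIG1 (y axes) against the log2 level of HSPA6 (x axis) on each of the 12 arrays. Filled symbols are 6 h and open symbols 24 h, circles replicate 1 and triangles replicate 2. The 4 arrays with high HSPA6 (10.50 to 12.54) hold DHCR7 levels of 6.70 to 7.25 and SQLE levels of 9.13 to 9.41, and INSIG1 levels of 7.82 to 9.22.

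Several members had a further probe, which served as a check on the same arrays. The other tested probe of DHCR7 followed the brightest one at r = 0.94 over 12 arrays, and that of SQLE at r = 0.91. The second DHCR7 probe put replicate 2 above replicate 1 by 1.16 and 0.65 in the Control pairs, and below it by 1.14 (ST362) and 0.71 (MEB55) at 24 h. The second SQLE probe did the same, with Control differences of 0.59 and 0.45 and 24 h differences of -0.85 (ST362) and -0.63 (MEB55). The second INSIG1 probe was dim. It was not above background on any of the 4 Control arrays, so no difference from Control is read from it, and it passed the filter through analogue groups. It followed its partner at r = 0.63 with a narrower range, 4.22 to 5.01. Its replicates differed (replicate 2 minus replicate 1) by 0.52 (ST362) and 0.03 (MEB55) in the 6 h pairs and by -0.25 (ST362) and 0.49 (MEB55) in the 24 h pairs. It was thus lower on the array with high HSPA6 in 3 of 4 pairs, against 1 of 4 for the bright probe. In the MEB55 24 h pair both probes were higher on that array. At levels this near background the count cannot decide between the probes. The remaining 2 LSS probes were near background (detected on 3 and 1 of 12 arrays) and were not tested.

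The other enzymes of the pathway gave a similar picture in the tests and a weaker one between the Control arrays. Of 25 listed enzymes of the mevalonate and sterol steps, 19 were tested, 13 of them outside the members, and 0 of 13 were called in any of the 12 comparisons (0% to 0.577% of probes in limma). At an unadjusted p under 0.05 over both times, ST362 had 2 of the 19 higher and 1 lower (median 0.01), and MEB55 had 1 higher and 2 lower (median 0.15). Among all probes 13.2% (ST362) and 10.5% (MEB55) passed in limma, so these counts were near the share of all probes. Closest to the threshold were GGPS1, which makes geranylgeranyl diphosphate off the sterol route (0.52 ± 0.14 with ST362, limma adjusted p = 0.11, and 0.27 ± 0.14 with MEB55), and LBR, a lamin receptor with sterol reductase activity (-0.60 ± 0.16 with ST362, limma adjusted p = 0.11, and -0.44 ± 0.16 with MEB55). SC5D, a late sterol desaturase, differed by 0.67 ± 0.19 with ST362 and 0.45 ± 0.19 with MEB55, and MVK, mevalonate kinase, by -0.26 ± 0.13 and -0.34 ± 0.13. GGPS1 ran at 8.80 to 9.01 on the 4 ST362 arrays and 8.31 to 8.47 on the 4 Control arrays. These did not overlap, as for 9.81% of all genes, and GGPS1 was named for its small adjusted p. Control replicate 2 exceeded replicate 1 at both times in 9 of these 13 enzymes, but by at least 0.5 in 1 of 13, MSMO1 (0.98 and 0.52), which encodes a methylsterol oxidase.

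Of 10 listed genes that govern SREBP processing, 8 were tested and 0 were called in any comparison. Over both times, 1 of 8 was higher at an unadjusted p under 0.05 with ST362 and 1 of 8 with MEB55 (limma), where 13.2% and 10.5% of all probes passed. MBTPS1, the Golgi protease that makes the initial cut in SREBPs, differed by 0.30 ± 0.11 with ST362 and 0.09 ± 0.11 with MEB55, and SREBF1 by -0.26 ± 0.16 and 0.01 ± 0.16. INSIG2, the relative of INSIG1, differed by 0.25 ± 0.19 and 0.05 ± 0.19, and SYVN1, a ubiquitin ligase of the endoplasmic reticulum, by 0.26 ± 0.24 and 0.55 ± 0.24. Of the 7 outside the members, 1 had Control replicate 2 above replicate 1 at both times.

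Among genes of sterol uptake and handling, NPC1 rose with MEB55. NPC1 is the lysosomal membrane protein that passes cholesterol out of lysosomes. The MEB55 arrays had log2 levels of 8.23 and 7.78 (6 h) and 7.72 and 8.39 (24 h), the ST362 arrays 7.99 and 7.40 (6 h) and 7.59 and 7.88 (24 h), and the Control arrays 7.28 and 7.05 (6 h) and 7.11 and 7.02 (24 h). All 8 analogue arrays lay above all 4 Control arrays. Of all genes, 9.81% (ST362) and 7.79% (MEB55) did not overlap with Control, in either direction. Over both times the difference was 0.91 ± 0.17 with MEB55 (limma adjusted p = 0.0422) and 0.60 ± 0.17 with ST362 (limma adjusted p = 0.13), and the ST362 value did not pass. The MEB55 call was narrow. It was lost in 7 of 12 fits that left out an array: those without Control 6 h replicate 1 (limma adjusted p = 0.0609) or 2 (0.119), Control 24 h replicate 1 (0.104) or 2 (0.13), MEB55 6 h replicate 1 (0.108), MEB55 24 h replicate 2 (0.11) and ST362 24 h replicate 1 (0.0562), with differences of 0.80 to 1.01 over the 12 fits. In each analogue pair NPC1 was higher on the array with high HSPA6, and the part of heat shock in its level was not tested. The other 11 tested genes of 14 listed did not pass, among them the lysosomal NPC2 (0.13 ± 0.12 with MEB55 and 0.28 ± 0.12 with ST362) and STARD3 (0.33 ± 0.14 and 0.37 ± 0.14), a late endosomal sterol-binding protein, and STARD4 (0.16 ± 0.17 and 0.33 ± 0.17), a cytosolic sterol carrier.

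Of 12240 named genes outside the members, those most like the members were found by correlation with the mean of the 7 members' standardized levels over 12 arrays. The 10 closest were PCNX1 (r = 0.917), CYB5B (0.915), H1-2 (0.912), NSDHL (0.911), MSMO1 (0.902), CAPN1 (0.899), PLA2G4C (0.893), GABARAP (0.893), NSD3 (0.884) and FADS1 (0.88). NSDHL and MSMO1 encode enzymes that remove methyl groups from sterols, and FADS1 is a fatty acid desaturase. Control replicate 2 was above replicate 1 at both times for all 10, by 0.25 to 1.13. The members had this order too, and the 10 were chosen for likeness to them, so it is no separate result. These are correlations over arrays that share groups, given as a description.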

How the data were processed

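Total RNA of U2OS cells was labelled and hybridized to 12 Illumina HumanHT-12 arrays. Probe intensity values were deposited by the authors as exported from GenomeStudio (version not given), with no normalization. The detection p-values in the deposited table compare each probe with the negative controls of its array. The series values of the authors equal the same signals after quantile normalization within 0.364%. They were used as an alternative. neqc in limma 3.58.1 (R 4.3.3) corrected the background, quantile-normalized the signals with an offset of 16 and took log2. Testing was limited to probes with a detection p under 0.05 throughout some group of 2 arrays, which left 22186 of 47313 probes and 12290 genes. Of all probes, 30109 carry 1 symbol, 8 several and 17196 none. Between 42.7% and 47.4% of probes were detected per array. A gene was read from its tested probe with the highest mean.

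Comparisons were fitted with lmFit and eBayes on all 12 arrays, as 6 groups or as 3 agents over both times, with two-sided tests and Benjamini-Hochberg adjustment over all tested probes. The number of arrays limits the precision. The methods speak of RNA from duplicate sample sets, and a legend for the 6 h arrays speaks of independent experiments. The labels do not say which arrays were prepared together, and p-values measure the spread between these arrays. The fit was tested on simulated data. Promoters came from RefSeq tables (GRCh38.p14). The members, the gene lists and the fit over both times were chosen with earlier results of these data known. Named genes were all members, up to 4 genes per list with the smallest adjusted p over both times and any gene past the test, and the 10 genes most like the members. MSMO1 and SCD are also named as a count of 1, chosen after their values were seen. Alternatives changed the background correction, offset, scaling, probe filter, variance model, probe choice and replicate block, and left out each array in turn.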

Additional observations from a re-analysis of the deposited data

How the results depend on the processing

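The number of members past the test was 0 in each of the 12 comparisons under each of 28 alternatives, 2 of which (crossed replicate numbers) were added after the data were seen, and in the paired fit of the analogue arrays. The highest count at an unadjusted p under 0.05 was 3 of 7, for the change of the ST362 effect with time when the replicate numbers of both analogues were crossed at 24 h, where 3.31% of all probes passed. Of the 84 values of a member in a comparison, 60 changed sign under at least 1 of up to 25 alternatives, and 0 passed the test under any planned one (lowest limma adjusted p 0.241). The NPC1 difference with MEB55 over both times stayed between 0.65 and 1.01. It was past the test in 14 of 25 alternatives and lost, outside the fits without an array, with no background correction (limma adjusted p = 0.0754), an offset of 50 (0.0588), the series values of the authors (0.0655) and no probe filter (0.103). The replicate numbers did not pair the analogue arrays with the Control arrays: deviations of same-numbered arrays correlated at 0.08 (Control and ST362 at 6 h), -0.14 (Control and MEB55 at 6 h), -0.17 (Control and ST362 at 24 h) and -0.06 (Control and MEB55 at 24 h). They did pair the analogues within a time, ST362 and MEB55 correlating at 0.49 (6 h) and 0.48 (24 h), and across times the correlation was 0.37 for Control, -0.37 for ST362 and -0.39 for MEB55. With the replicate block 0 of 7 members were called in every comparison, and 1 of 7 passed an unadjusted p under 0.05 for MEB55 over both times, where 10.5% of all probes passed. With 2 arrays a group, differences smaller than the intervals given for the members could not be detected. Larger ones could be missed too, because the intervals are unadjusted and the calls are adjusted over all tested probes. In the main fit of 6 groups, 0% of the probes were called for either analogue against Control. Signals near background, as on the dim probes of INSIG1 and LSS and to a lesser degree on the MVD probe, are compressed. Quantile normalization cannot show a shift shared by all genes.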

Other observations

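The fatty acid synthesis genes, many of which are SREBP targets too, showed the Control difference in part. Control replicate 2 was above replicate 1 at both times in 10 of 12 tested genes, by at least 0.5 in 1 of 12, SCD (0.91 at 6 h and 0.55 at 24 h), the desaturase that makes oleate from stearate. None of the 12 was called in any comparison (limma). Over both times ACSL1, a fatty acyl-CoA ligase, differed from Control by -0.52 ± 0.15 with ST362 (limma adjusted p = 0.153) and 0.04 ± 0.15 with MEB55, and ACSS2, a cytosolic acetyl-CoA synthetase, by 0.53 ± 0.27 and 0.28 ± 0.27. ACLY, ATP citrate lyase, differed by -0.32 ± 0.15 and 0.02 ± 0.15, and FADS2 by -0.23 ± 0.13 and -0.25 ± 0.13.

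The branches that use isoprenoids for ubiquinone and protein prenylation had 11 tested genes, 0 of them called. COQ2, a ubiquinone synthesis enzyme, differed by -0.65 ± 0.20 with ST362 over both times (limma adjusted p = 0.153) and by -0.31 ± 0.20 with MEB55. Control replicate 2 exceeded replicate 1 at both times in 2 of these 11 genes. The 6 tested genes of sterol efflux gave 0 calls, and ABCA1, the cholesterol exporter, differed by -0.01 ± 0.13 with ST362 and -0.25 ± 0.13 with MEB55. Among 12 heat shock genes CRYAB, a small heat shock protein, was the only one called, with MEB55 over both times (1.67 ± 0.33, limma adjusted p = 0.0468), and this call was lost in 11 of 12 fits that left out an array (limma adjusted p 0.0514 to 0.131). It held only without MEB55 24 h replicate 1 (0.0228). The difference was 1.41 to 1.97 over these fits. The call was also lost in 5 of 13 other alternatives: no background correction (0.108), an offset of 50 (0.0918), the series values (0.0987), no probe filter (0.167) and the compared groups only (0.0721).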
